A study of Rattus norvegicus with 24 samples.

Results

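The heat shock genes of the cytosol and the mitochondria were followed in lumbar dorsal root ganglia of rats given an opioid or saline after vincristine or its vehicle. The rule named 10 genes (Dnajb1, Hspb1, Hspa8, Hsp90aa1, Hsp90ab1, Hsph1, Hspa1b, Hspd1, Hspe1 and Cryab), of which 9 had a probe under their symbol in the array annotation, with 10 probes between them. These 10 stood among 22517 probes in all. After a detection filter, 6 of the 10 heat shock probes remained, each for another gene, among 7043 kept probes of 5435 named genes. The 10 genes were selected on their function and on opioid-saline differences in log2 intensity seen on these same arrays, so that comparison is given as a description, with no test of the members.

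All rats were Sprague-Dawley rats aged 3 months. For 10 days they received vincristine, an anti-mitotic vinca alkaloid that causes a painful neuropathy, or saline as its vehicle, and then for 5 days morphine, oxycodone at the same dose, or saline. The 6 groups are named by both treatments in that order: saline-saline, saline-morphine, saline-oxycodone, vincristine-saline, vincristine-morphine and vincristine-oxycodone, with 4 rats and 4 arrays each. Rats given saline in place of vincristine are called control rats. A ganglion holds sensory neurons, satellite glia, Schwann cells, macrophages and vessels, so that a lower number of cells of a type and less RNA per cell cannot be told apart. Of 14 sensory neuron marker probes 13 were kept, and their mean stood between 11.5 and 11.7 on the log2 scale on all 24 arrays. Calca was the marker probe that passed on none, which does not show that the gene was not expressed.

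Heat shock proteins are molecular chaperones that keep other proteins folded. Hsp70 proteins bind unfolded stretches in a cycle driven by J-domain partners such as Dnajb1 and reset by exchange factors such as Hsph1, and Hsp90 proteins take over late-folding clients such as kinases and steroid receptors. Small heat shock proteins such as Hspb1 and Cryab hold misfolded proteins without using ATP, and Hspd1 with its lid Hspe1 forms the folding chamber of the mitochondrial matrix. In the cytosol and nucleus, heat shock factor 1 switches many of these genes on together by binding repeats of a short DNA unit called the heat shock element. In sensory neurons, Hspb1 is known as an abundant protein that accumulates after nerve injury, and human HSPB1 mutations cause inherited axonal neuropathy.

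In a search for exact letters, the promoters of the members differed in that element, and those of Dnajb1 and Hspb1 matched only its shorter form. A link of its form to the opioid-saline differences was not tested. Of the members with a longer match, Hspa8 and Hsph1 had no detected probe, and Hspd1 and Hspe1 share 1 stretch. RefSeq promoters of rat build GRCr8 (250 bases before to 50 after a transcription start) were on hand for 7 of the 10 members, without Hsp90aa1, Hspa1b and Cryab. The element was searched as 3 or as 2 units, GAA and TTC in alternation with any 2 bases between them, starting with either unit, on both strands. Each 3-unit match also holds 2-unit matches. A 3-unit match stood in 267 of 33469 promoters of the same length (0.798%) and in 4 of the 7 members, Hspa8, Hsph1, Hspd1 and Hspe1. A 2-unit match stood in 5305 promoters (15.9%) and in 6 of the 7, all but Hsp90ab1. The match of Hspd1 and that of Hspe1 were the same bases of chromosome 9, since both genes start back to back from 1 stretch. Between the start sites of these promoter entries lay 289 bases. By full gene spans the genes met there: that of Hspd1 reached to base 64084332 and that of Hspe1 began at 64084327. In the following 30-base stretches of the + strand the matched units are in capitals, for Hspe1 with Hspd1 (chr9:64084256-64084285), Hsph1 (chr12:10427324-10427353) and the match of Hspa8 nearer its start (chr8:50080451-50080480):
Hspe1 and Hspd1: gctcggTTCTAGAACCTTCCGGAAggcccc
Hsph1: gccgcagaTTCTGGAAAGTTCtcctcagta
Hspa8: cggaacccTTCTGGAAGGTTCtaagacagg

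Dnajb1 and Hspb1 held 2-unit matches only. The 250 bases before the start of each are given 5′ to 3′ on the − strand, from which both genes are read, with the 2-unit matches in capitals (Dnajb1, chr19:41431142-41431391; Hspb1, chr12:26432302-26432551):
Dnajb1: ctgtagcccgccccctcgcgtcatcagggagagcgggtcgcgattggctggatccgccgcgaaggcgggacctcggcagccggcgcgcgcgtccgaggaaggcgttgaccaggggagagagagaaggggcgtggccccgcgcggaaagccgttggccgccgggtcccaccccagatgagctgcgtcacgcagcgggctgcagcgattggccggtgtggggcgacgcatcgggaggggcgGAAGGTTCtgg
Hspb1: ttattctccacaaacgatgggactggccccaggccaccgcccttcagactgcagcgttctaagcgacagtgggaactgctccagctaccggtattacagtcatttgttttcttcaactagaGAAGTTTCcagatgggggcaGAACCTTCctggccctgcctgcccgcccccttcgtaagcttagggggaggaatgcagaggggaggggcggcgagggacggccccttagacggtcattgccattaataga
The match of Dnajb1 began at position -11 from the start, and a further 2-unit match began at position 18 after it. Those of Hspb1 began at positions -129 and -109. A match is a run of letters and was not tested for binding.

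**Figure D1:**
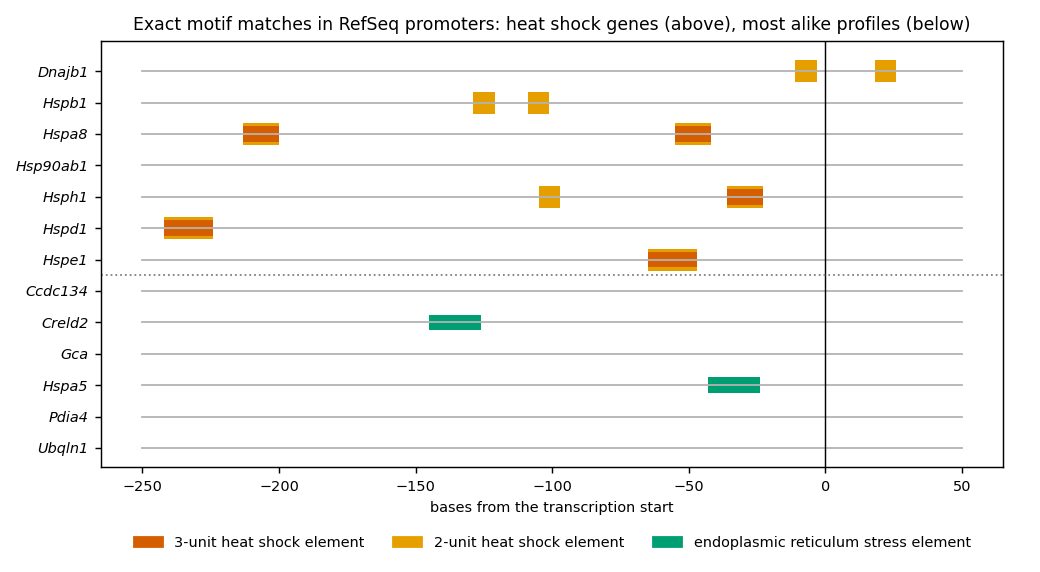
Positions of exact motif matches, in bases from the transcription start, in the promoters of the 7 heat shock genes with an entry (upper rows) and of 6 genes whose profiles were most like theirs (lower rows). Bars are 3-unit and 2-unit heat shock elements and the endoplasmic reticulum stress element. In the rows drawn, heat shock elements lie in 6 of the 7 upper rows and in no lower row. The endoplasmic reticulum stress element lies in 2 of the 6 lower rows, Creld2 and Hspa5. Over all promoters 0.798% held the 3-unit form, 15.9% the 2-unit form and 0.0657% the endoplasmic reticulum stress element.

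Each array gave 1 background-corrected, quantile-normalised log2 intensity per probe, and between 6112 and 6907 probes per array reached a detection p-value of at most 0.0005. A probe was kept if it did so on at least 4 arrays. By its column order the intensity table split into 4 blocks of 6 arrays, and each block, called a column set, held every group once. The sources used here do not state what a block stands for. Arrays of 1 set deviated from their group means together (mean correlation 0.41 over 60 pairs), so differences within a set and values with the set as a block are given beside the plain ones. Standard errors (SE) and intervals come from limma over all 7043 probes, and levels of different probes are not compared.

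Dnajb1, Hspb1, Hspd1, Hspe1, Hsp90aa1 and Cryab passed the detection cutoff on 24 of 24 arrays, so the filter removed none of them in any group. The 2 probes of Hsp90ab1, the constitutive cytosolic Hsp90, and those of Hsph1 and of Hspa1b, an inducible Hsp70, passed on 0 of 24 arrays and were not above background. Their signals lay between 36.5 and 66.6, where the median signals of whole arrays lay between 48.6 and 72.8, and no fold is given for them. A probe at background does not show that its gene was not expressed. For Hspa1b the annotation's symbol was kept, and a probe for it can be shared with its near-identical neighbour gene. No probe was listed under Hspa8, the constitutive Hsp70. Neither Hspa8 nor Hspa1b, the Hsp70 proteins that Dnajb1 serves, thus had a detected probe.

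Dnajb1, the J-domain protein that delivers clients to Hsp70 in the cytosol, stood higher in all 4 opioid groups than in both saline groups. In saline-saline rats its log2 values were 10.59, 10.70, 10.81 and 10.81, in saline-morphine rats 10.92, 11.16, 11.28 and 11.19, and in saline-oxycodone rats 11.12, 11.34, 11.26 and 11.24. In control rats, then, the lowest of the 8 opioid arrays was above the highest of the 4 saline arrays. The same separation was met by 6 of 7043 probes (0.0852%), among them also Creld2 and Hmox1.

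In vincristine-treated rats Dnajb1 read 10.86, 10.45, 10.63 and 10.73 without opioid, 11.06, 10.95, 11.26 and 10.86 with morphine, and 10.82, 11.05, 11.16 and 10.99 with oxycodone. Here 7 of 8 opioid arrays exceeded all saline arrays, and vincristine-oxycodone replicate 1 fell just under vincristine-saline replicate 1. A full separation in these rats was met by 5 probes (0.071%), and by none of the heat shock probes. The difference over both arms was 0.41 (SE 0.063), a 1.33-fold level with morphine and 1.43-fold with oxycodone in control rats, and 1.29-fold and 1.26-fold in vincristine-treated rats. The share of variance between column sets was 17.7% for Dnajb1 and that between groups 73.6%, as compared to medians of 44.4% and 11.7% over all kept probes. Since the genes were picked with opioid-saline differences of these arrays in view, its share between groups is a description only.

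Hspb1, the small heat shock protein also called Hsp27 or Hsp25, stood higher with opioid by nearly the same amount. Its saline-saline values were 12.63, 12.24, 12.35 and 12.18, as compared to 12.74, 12.64, 12.84 and 12.64 with morphine and 12.99, 12.54, 12.82 and 12.66 with oxycodone. The saline array at 12.63 belonged to column set 1, which held the highest Hspb1 value in 5 of 6 groups, and 7 of 8 opioid arrays exceeded it.

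Vincristine-saline rats gave Hspb1 values of 12.29, 12.48, 12.37 and 11.88, vincristine-morphine rats 12.49, 12.71, 12.54 and 12.88, and vincristine-oxycodone rats 13.02, 12.56, 12.87 and 12.43. Again 7 of 8 opioid arrays were above all saline arrays of these rats. Over both arms the difference was 0.41 (SE 0.088), or SE 0.047 with the column set as block, and the sets carried 35.9% of its variance. By fold, Hspb1 stood 1.29 times and 1.32 times as high with morphine and oxycodone in control rats, and 1.32 times and 1.38 times in vincristine-treated rats.

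**Figure D2:**
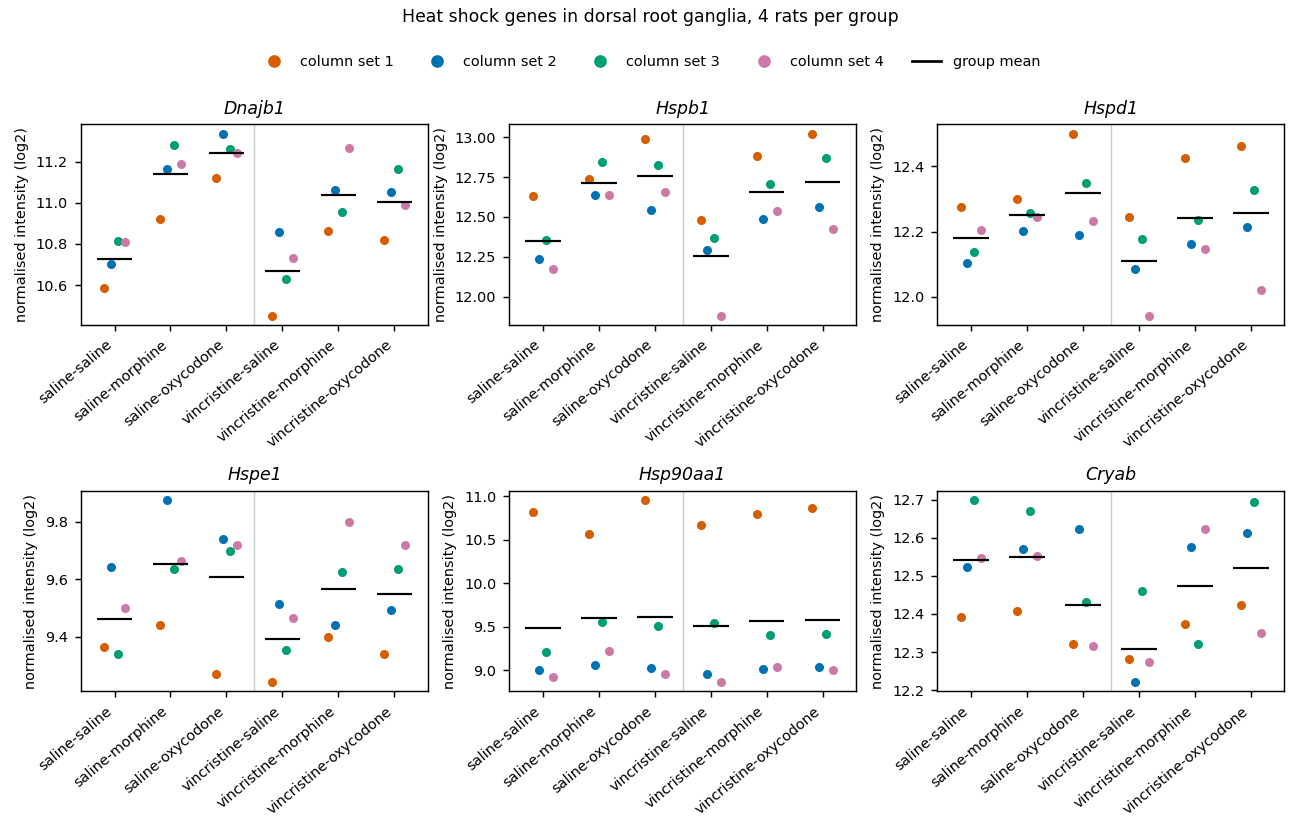
Normalised log2 intensity of the 6 kept heat shock probes in each rat (points, coloured by column set) by group, with the group mean as a bar (n = 4). All 4 opioid group means stand above both saline group means for every gene but Cryab, where 1 of 4 does. The share of all probes with this order was not counted, and the genes were picked with opioid-saline differences in view. The group means of Hsp90aa1 run only from 9.49 to 9.61. In Hsp90aa1 the points of column set 1 stand apart in every group.

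Hspd1 (Hsp60) and Hspe1 (Hsp10), the chamber and the lid of the mitochondrial chaperonin, differed less. Hspd1 ranged from 11.94 to 12.27 on the 8 saline arrays, with a median of 12.16, and from 12.02 to 12.50 on the 16 opioid arrays, with a median of 12.24. Those ranges overlapped, and 6 of 16 opioid arrays exceeded all saline arrays. Its opioid-saline difference was 0.12 (SE 0.057), and 52.5% of its variance lay between column sets.

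Hspe1 ranged from 9.24 to 9.64 without opioid (median 9.41) and from 9.27 to 9.88 with opioid (median 9.64), with 7 of 16 opioid arrays above all saline arrays. Its difference was 0.17 (SE 0.074). The order of its group means put morphine above oxycodone in both arms, the reverse of Hspd1, but neighbouring means differed by less than the SD within groups (0.12 to 0.23). Both genes share 1 promoter stretch, and their values correlated over 24 arrays at r = 0.37 with set means removed and at -0.18 with group means removed as well.

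Hsp90aa1, the inducible cytosolic Hsp90, differed mainly between column sets. In set 1 its 6 arrays lay between 10.57 and 10.96, and in the other sets its 18 arrays lay between 8.86 and 9.56. The sets carried 98.0% of its variance and the groups 0.40%, and by its excess in set 1 over the other sets it ranked 36th of 7043 probes. Its opioid-saline difference of 0.09 had an SE of 0.34, or of 0.051 with the set as block. Within sets the opioid array exceeded the saline array of its arm in 13 of 16 pairs.

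Cryab (alphaB-crystallin), a small heat shock protein rich in muscle, lens and glia, differed little over both arms (0.07, SE 0.059). In control rats its values were 12.39 to 12.70 with saline and 12.32 to 12.67 with an opioid, and no opioid array exceeded all saline arrays. In vincristine-treated rats they were 12.22 to 12.46 with saline and 12.32 to 12.69 with an opioid, and 4 of 8 did. Skeletal muscle transcripts, given below, were high on some of these 4 arrays. The vincristine-saline group had the lowest Cryab mean (12.31 ± 0.10, SD, n = 4), and saline-morphine the highest (12.55 ± 0.11).

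Over the 6 kept probes the opioid mean was above the saline mean in 6 of 6, as compared to 48.3% of all kept probes. The median difference of the 6 was 0.14 and that of all probes -0.0024. Hspb1 ranked 32nd and Dnajb1 33rd of 7043 by that difference, Hspe1 146th, Hspd1 279th, Hsp90aa1 515th and Cryab 922nd. Without saline-saline replicate 1, an array of set 1, the median of the 6 was 0.23. The genes were picked for this comparison, and nothing further is read from the ranks.

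**Figure D3:**
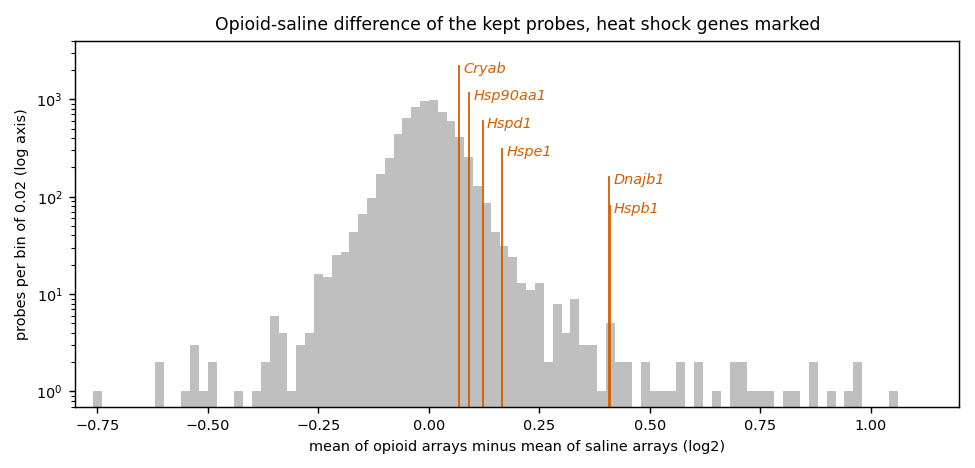
Histogram of the opioid-saline difference (log2, mean of 16 opioid arrays minus mean of 8 saline arrays) of the 7043 kept probes on a log count axis, with the 6 heat shock probes marked by lines. All 6 lie right of 0, Cryab at 0.07 and Dnajb1 and Hspb1 at 0.41.

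Within column sets the picture was the same for 3 of the 6 genes. Each opioid array was set against the saline array of its own set and arm, which gives 16 pairs, with each saline array serving a pair of them. Dnajb1 was higher with opioid in 16 of 16 pairs (0.19 to 0.63, median 0.42), Hspb1 in 16 of 16 (0.11 to 0.66, median 0.43) and Hspd1 in 16 of 16 (0.026 to 0.23, median 0.11). A clean sweep of this kind was met by 12 of 7043 probes (0.17%), and the other 9 were Creld2, Pdia4, Hspa5, Calr, Stip1, Ddit3, Cry1, Nfil3 and Isyna1. Hspe1 and Hsp90aa1 were higher in 13 of 16 pairs and Cryab in 11.

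Skeletal muscle transcripts varied between these ganglia, and their level is given because muscle is rich in Cryab. Of 14 muscle marker probes 8 were kept, while Myh2 and Myh4 passed the cutoff on no array. Their mean ranged from 6.18 to 7.74 on saline arrays and from 5.92 to 10.4 on opioid arrays, and it exceeded 7.5 on 6 arrays, 5 of them opioid and 5 of them vincristine arrays. Without those 6 arrays the opioid-saline difference was 0.32 (SE 0.065) for Dnajb1, 0.51 (SE 0.098) for Hspb1 and 0.03 (SE 0.066) for Cryab, and the median of the 6 probes was 0.25. With the set as block as well, the differences were 0.37 for Dnajb1 and 0.40 for Hspb1, and the median was 0.15. On vincristine-morphine replicates 1 and 3, both among the 6, Cryab read 12.58 and 12.62, and 12.32 and 12.37 on replicates 2 and 4. On vincristine-oxycodone replicates 3 and 4, also among the 6, it read 12.69 and 12.35, and 12.42 and 12.61 on replicates 1 and 2. On saline-morphine 4 and vincristine-saline 2 it read 12.55 and 12.28, within the range of their groups. The part of muscle in these values was not tested.

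Whether vincristine itself changed the heat shock genes was tested over the 3 drug groups, a comparison the choice of genes did not use. No member passed (0 of 6, limma, Benjamini-Hochberg over 7043 probes), where 14 probes did (0.199%). With the column set as block it was 0 of 6 against 42 probes (0.596%). At an unadjusted p under 0.05, limma gave 1 of 6, Dnajb1, and 195 of all probes, and the methods' test for the vincristine factor gave the same 1 of 6.

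Dnajb1 read from 10.45 to 11.26 in the 12 vincristine-treated rats (median 10.91) and from 10.59 to 11.34 in the 12 control rats (median 11.14), so the arms overlapped widely. Its difference was -0.13 (SE 0.059, limma adjusted p = 1.0, and 0.26 with the set as block), and it was lower with vincristine in 4 of 4 sets and in 10 of 12 pairs within sets. By drug group it was -0.06 without opioid (interval -0.27 to 0.15), -0.10 under morphine (interval -0.32 to 0.11) and -0.23 under oxycodone (interval -0.45 to -0.021). These intervals overlapped, and none of these values passed after adjustment. Hspb1, Hspd1, Hspe1, Hsp90aa1 and Cryab gave differences from -0.07 to -0.02, in 3 or 4 of 4 sets below 0. For Cryab the value of -0.07 joined drug groups of unlike sign, with -0.23 in rats without opioid (interval -0.43 to -0.031, limma adjusted p = 1.0), -0.08 under morphine (interval -0.28 to 0.12) and 0.10 under oxycodone (interval -0.10 to 0.30). Red cell transcripts differed between the same arms: the mean of their 8 kept probes lay between 7.91 and 9.23 in control rats and between 9.92 and 11.4 in vincristine-treated rats, with no overlap, while Klf1, Alas2, Slc4a1, Epb42 and Hba-a2 passed on no array. Their part in the Dnajb1 values was not tested.

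Morphine and oxycodone, an alkaloid of the poppy and its semi-synthetic relative, were compared at the same dose and time. Over 12 comparisons (6 genes in 2 arms) no heat shock probe passed in either arm (0 of 6 and 0 of 6 in limma), and over the whole array 0 probes (0%) did in each arm, with 53 probes at an unadjusted p under 0.05 in vincristine-treated and 268 in control rats. Of the members, 0 of 6 had an unadjusted p under 0.05 in limma or in the methods' t-test in either arm. In vincristine-treated rats the morphine minus oxycodone difference was 0.03 for Dnajb1, with a 95% interval from -0.18 to 0.24 (exact permutation p = 0.77, two-sided, 4 against 4). For Hspb1 it was -0.07, with an interval from -0.37 to 0.23 (exact permutation p = 0.71).

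In control rats Dnajb1 gave -0.10 (interval -0.32 to 0.11, exact permutation p = 0.34) and Hspb1 gave -0.04 (interval -0.34 to 0.26, exact permutation p = 0.74), and both turned above 0 (0.076 and 0.13) under median centring, which moved the median of all probes to 0.19. Dnajb1 was higher with morphine in 1 of 4 sets and Hspb1 in 2 of 4. The largest of the 12 differences was that of Cryab in control rats, 0.13 higher with morphine (interval -0.074 to 0.33, exact permutation p = 0.20). All adjusted p in limma were 1.0 in both arms.

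**Figure D4:**
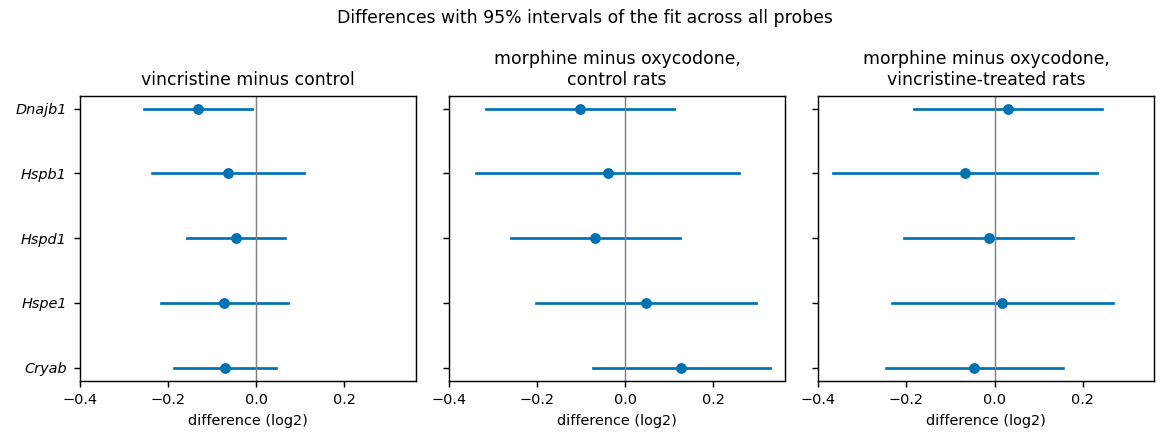
Differences on the log2 scale (points) with 95% intervals (lines) for vincristine minus control over the 3 drug groups and for morphine minus oxycodone in each arm. Hsp90aa1, whose interval for morphine minus oxycodone in vincristine-treated rats reached from -1.17 to 1.14, is left out of the plot. All intervals but that of Dnajb1 for vincristine (-0.26 to -0.0093) hold 0.

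The opioid-saline difference of the members was then compared between arms. In the interaction F-test of limma 0 of 6 members passed, and 0 of 6 at an unadjusted p under 0.05, where 0 of all probes did (0%) and 107 unadjusted. The smallest member p was that of Cryab (limma 0.077, adjusted p = 1.0), and with the column set as block it was 0.033 (adjusted p = 0.89). In that fit 0 of all probes passed, and unadjusted p were not counted over the array. The opioid-saline difference of Cryab was 0.24 larger in vincristine-treated than in control rats (interval -0.0037 to 0.49). With oxycodone alone it was -0.12 (SE 0.097) in control rats and 0.21 (SE 0.097) in vincristine-treated rats, and the arms differed by 0.33 (interval 0.045 to 0.61, limma adjusted p = 1.0). At an unadjusted p under 0.05 1 of 6 members, Cryab, was counted in that contrast, and 83 of all probes. With morphine alone they differed by 0.16 (interval -0.13 to 0.44). The part of muscle transcripts in these Cryab values was not tested. For Dnajb1 the arms differed by -0.11 (interval -0.37 to 0.15), and for Hspb1 by 0.05 (interval -0.32 to 0.41).

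The other genes of the heat shock machinery are given by list. Over 8 further lists, 62 genes were kept, and 38 of the 62 had a higher opioid than saline mean, with a median of 0.02. None of the 62 passed in limma, plain or with the set as block. Over the array 8 of 7043 probes did, 6 of them higher (0.0852%). With the set as block 22 did, 17 of them higher (0.241%). At an unadjusted p under 0.05 in plain limma it was 1 of 62, and 204 of 7043 probes. In the vincristine comparison likewise 0 of 62 passed, where 14 of 7043 probes did (0.199%), or 42 with the block (0.596%). Unadjusted it was 1 of 62, and 195 of 7043 probes.

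Among these, Stip1 (Hop), which links Hsp70 to Hsp90, had a difference of 0.20 (SE 0.055, limma adjusted p = 0.46), and St13 (Hip), another Hsp70 partner, had 0.14. Fkbp5, an Hsp90 co-chaperone that glucocorticoids induce, had 0.22 with an SE of 0.17. The 13 other J-domain genes ran from -0.13 for Dnajb4 to 0.12 for Dnaja4, with 7 of 13 above 0. The 10 mitochondrial chaperone and protease genes had a median of -0.02 and 4 of 10 above 0. The largest in size were 0.10 for Dnaja3, -0.10 for Dnajc19, -0.09 for Hscb and 0.07 for Hspa9, the mitochondrial Hsp70.

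Other small heat shock genes gave 0.10 for Hspb6, 0.09 for Hspb8 and 0.02 for Hspb2. The cytosolic chaperonin TRiC with prefoldin had 9 of 10 above 0 but a median of only 0.04. The 4 heat shock factor genes and regulators that were kept, Hsf2, Hsf4, Hsbp1 and Rbck1, lay between -0.08 and 0.05, with an SE of 0.29 for Hsf2. Heat shock factor 1 was not among these 4, so no value is given for it. Chaperones of the endoplasmic reticulum (ER) had 16 of 19 above 0 with a median of 0.21, and 4 of 19 were called higher, Creld2, Pdia4, Manf and Hspa5, or 9 of 19 with the set as block. These calls stand beside 6 probes called higher over the array (0.0852%), or 17 with the block (0.241%). Calls in either direction over the array numbered 8, from 3 to 12 with 1 array left out, and 1 without the 6 muscle-rich arrays.

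**Figure D5:**
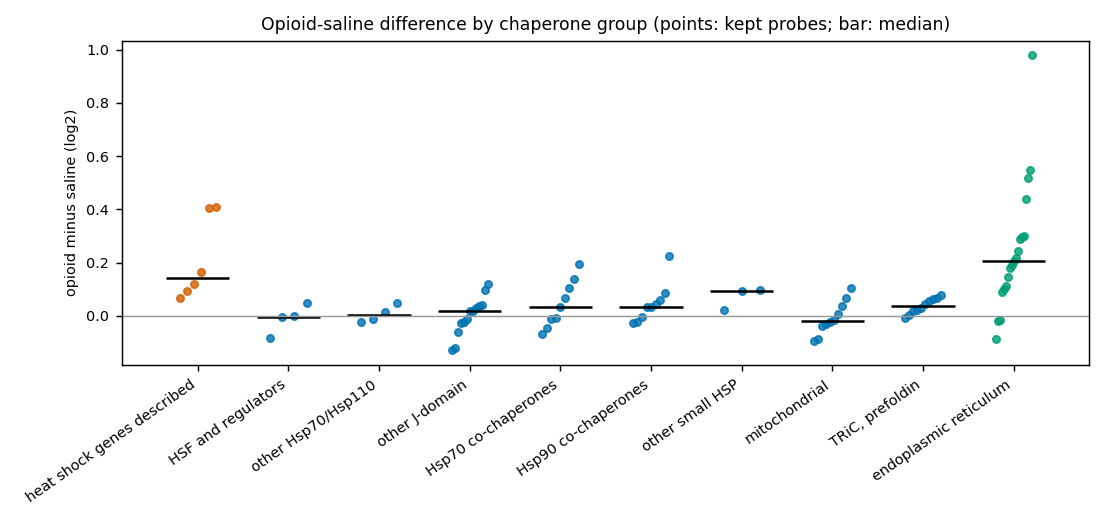
Opioid-saline difference (log2) of each kept probe (points) by chaperone group, with the group median as a bar. The heat shock genes described have a median of 0.14, the other cytosolic and mitochondrial groups have medians between -0.02 and 0.09, and the ER chaperones one of 0.21.

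Profiles of the members were also set against each other. With set means removed, the profiles of Dnajb1 and Hspb1 over 24 arrays correlated at r = 0.87, Hspb1 and Hspd1 at 0.83 and Dnajb1 and Hspd1 at 0.71, while Cryab reached at most 0.33 with any other member. These are descriptions over arrays that share group differences. With group means removed as well, Hspb1 and Hspd1 had r = 0.71 and Hspb1 and Hsp90aa1 0.60, Dnajb1 and Cryab had 0.49, and Dnajb1 and Hspb1 had 0.34.

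The genes with profiles most like the members were named from the same values. For Dnajb1 the nearest of all kept non-member probes was Creld2 (r = 0.87), an ER-resident protein, followed by Hspa5 (0.86), the ER Hsp70 also called BiP, Ubqln1 (0.85), a ubiquilin, Pdia4 (0.85), a disulfide isomerase of the ER, and Cry1 (0.81), a circadian repressor. For Hspb1 the order was Creld2 (0.90), Pdia4 (0.89), Hspa5 (0.85), Cry1 (0.83) and Ccdc134 (0.83). For the mean profile of the 6 kept probes it was Creld2, Pdia4, Ccdc134, Hspa5 and Gca, between 0.82 and 0.87.

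With group means removed as well, Dnajb1 had r = 0.68 with Hspa5 and 0.64 with Creld2, and Hspb1 had 0.69 with Ccdc134 and 0.63 with Creld2. No heat shock element of either form was matched in the promoters of these neighbours (0 of 6 with an entry). Over all promoters 15.9% held the 2-unit form and 0.798% the 3-unit form, so 0 of 6 does not set the neighbours apart. Among 21 ER chaperone genes with an entry, 2 held the 2-unit form and 1 the 3-unit form. The ER stress element, searched on both strands as CCAAT, any 9 bases and CCACG, stood in 22 of 33469 promoters (0.0657%), in 8 of 21 ER chaperone genes with an entry, and in 0 of 7 heat shock members. Among the 6 neighbours with an entry that element stood in 2, Creld2 and Hspa5, and not in Pdia4, Ubqln1, Ccdc134 or Gca. Both matches are shown in capitals on the + strand, Creld2 at chr7:121789234-121789263 and Hspa5 at chr3:38452968-38452997:
Creld2: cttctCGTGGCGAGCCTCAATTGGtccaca
Hspa5: gttcaCCAATCGGAGGCCTCCACGacgggg
The promoters of Dnajb1 and Hspb1 given above hold no such run, and a missing match says only that these letters are not in the window.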

How the data were processed

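Total RNA of lumbar dorsal root ganglia from 24 rats was hybridised by the authors to Illumina RatRef-12 arrays, 1 array per rat. The authors deposited a table of probe intensity with a detection p-value per probe and array, and a table of log2 values, which equalled the quantile-normalised log2 intensity within 0.0014. Here the deposited intensity was corrected in R 4.3.3 by the neqc function (limma 3.58.1, background from the detection p-values, offset 16, quantile normalization). Probes with a detection p-value of at most 0.0005 on at least 4 arrays were kept. Genes were named from the array annotation, updated through Entrez or RefSeq identifiers (13787 probes named, 8730 without 1 gene, 35 symbols as in the annotation). A model of 6 group means over 24 arrays (18 residual degrees of freedom) was fitted with lmFit and eBayes, with Benjamini-Hochberg adjustment over 7043 probes at 0.05. The number of arrays limits the precision, and arrays of 1 group are separate rats. No 2 arrays were identical (0 pairs).

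Every member probe is named. Of other lists, counts are given for all, names for genes that passed and for at most the 4 largest differences. The members, the lists and the tests were chosen with earlier results of these data known. Alternatives were other background corrections, scalings, filters, variance priors, array weights, the methods' tests, column set or replicate number as block, and arrays left out. The script was tested on simulated data.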

Additional observations from a re-analysis of the deposited data

Results flagged for a closer look

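In 2 of 36 sets of 4 arrays (6 genes in 6 groups), 1 array stood apart from the other 3 by Dixon's criterion at 95%, which chance meets in about 1 of 20 groups. Hsp90aa1 read 10.82 in saline-saline replicate 1, with the other 3 between 8.92 and 9.21. That array belonged to column set 1, in which Hsp90aa1 lay between 10.57 and 10.96 in every group. Hspe1 read 9.27 in saline-oxycodone replicate 1, also of column set 1, with the other 3 between 9.70 and 9.74. Without that array, morphine minus oxycodone for Hspe1 in control rats was -0.066, as compared to 0.05 with it.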

How the results depend on the processing

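No heat shock probe passed in the vincristine, morphine-oxycodone or interaction tests under any of 38 or 39 alternatives per comparison, leave-one-out fits included (lowest and highest count 0 and 0). The median opioid-saline difference of the kept members stayed above 0 in 37 alternatives, from 0.079 with no filter, where the 4 probes not above background enter, to 0.25 without the 6 muscle-rich arrays. It was 0.14 with the authors' log2 values and 0.16 with median centring. Leaving out 1 array at a time gave 0.13 to 0.23, over 1.5 times the full value without saline-saline replicate 1 (0.23), and 0.21 without vincristine-saline replicate 2, both of column set 1. Over the whole array, calls in the opioid-saline comparison (8) fell to 3 without vincristine-morphine 3, vincristine-saline 3 or 4, saline-morphine 3 or saline-saline 1 or 3, to 4 or 5 without saline-saline 4, vincristine-morphine 2, vincristine-oxycodone 3 or vincristine-saline 2, and were 12 without vincristine-saline 1 or saline-morphine 1. Without the muscle-rich arrays, 1 probe was called there and 6 in the vincristine comparison (14 with all arrays).

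Dnajb1 ranged from 0.32 to 0.44, Hspb1 from 0.35 to 0.51 and Hsp90aa1 from -0.02 to 0.54, with the sign kept in 32 of 37. Median centring moved the median of all probes by 0.19 for morphine minus oxycodone in control rats and by 0.12 for morphine minus saline there, and by under 0.1 for vincristine over the 3 drug groups. With the replicate number as a block the median was 0.14, unchanged because every group holds each number once, and it changed no call. Same-numbered arrays had a mean correlation of 0.045 in 60 pairs of deviations, 30 of them over 0.1, so the number was not taken as a pairing. The fits without column set 1, without muscle-rich arrays together with the set block, and the likeness with group means removed were chosen after seeing the data.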
